A study of Margaritifera margaritifera with 32 samples.

Results

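The superoxide dismutase contigs of the freshwater pearl mussel Margaritifera margaritifera were 3 in number, namely SODC.1.3, SODC.2.3 as well as SODC.3.3, and they carry the name of copper/zinc superoxide dismutase. They were taken by name out of 51392 contigs in the count table, with earlier results of these data known. SODC is the protein database code for the copper/zinc form of the enzyme. A contig name gives a best match and was not tested as an identity. The numbers in the names mark separate contigs under 1 name, and reads from alike copies could be split between them. Neither contig lengths nor sequences were used here, so the level of 1 contig is not compared with that of another.

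Superoxide dismutases turn superoxide, a reactive by-product of respiration and of immune cells, into hydrogen peroxide and oxygen. Catalase, glutathione peroxidases and peroxiredoxins then remove the hydrogen peroxide. The copper/zinc form carries 1 copper and 1 zinc ion at its active site, and its activity is often measured in bivalves exposed to metals. In oysters the main protein of the haemolymph, the fluid that bathes the tissues, is a relative of this enzyme.

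The mussels came from the Dronne River in France, above and below an uncontrolled dump, and the series' title names trace metal contamination as its subject. Kidney RNA of 32 animals was sequenced, 1 library per animal, with 8 animals in each of 4 groups: upstream in April 2009, downstream in April 2009, upstream in March 2010 and downstream in March 2010. No genotype or treatment was given for any group. The age classes were uneven: upstream in 2009 there were 3 young, 4 middle-aged and 1 old animal, downstream in 2009 1 middle-aged and 7 old, upstream in 2010 4 young, 3 middle-aged and 1 old, and downstream in 2010 3 young, 3 middle-aged and 2 old. Old age and the downstream 2009 group therefore largely coincided, and year coincided with the month of sampling. Each group also had its own index sequences, so that index and group cannot be told apart.

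Libraries held between 55.7 and 190 M counts. A level is a CPM value, the count relative to a library size that was adjusted by a TMM factor, which aligns the bulk of contigs between libraries. The lowest of the 32 TMM factors, 0.503 and 0.524, belonged to downstream 2009 replicates 7 and 8. These 2 libraries also had the highest summed level of 39 contigs with ribosomal protein names, 109945 and 94450 CPM, against group medians between 11028 and 24160 CPM. No defining marker list of the bivalve kidney was used, so the labelled tissue was not checked. All 3 superoxide dismutase contigs were counted in every library: SODC.1.3 with 23 to 4893 reads, SODC.2.3 with 53 to 647 and SODC.3.3 with 26312 to 1738390. SODC.3.3 alone took between 0.0472% and 1.80% of a library's counts.

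All 3 superoxide dismutase contigs were called lower by edgeR in 2010 than in 2009 downstream of the dump, and 1 of these calls, that of SODC.1.3, held under every alternative tried. SODC.1.3 was 4.89-fold lower in 2010, SODC.3.3 3.95-fold lower and SODC.2.3 2.65-fold lower. SODC.2.3, and likewise SODC.3.3, lost its call with an age term, without TMM scaling of the libraries and without replicates 7 and 8 of downstream 2009. limma-voom called 2 of the 3, with SODC.3.3 at -0.40 on the log2 scale (adjusted p 0.353). By that method 24469 of all contigs were called, 11647 of them lower. At the site upstream no change of these contigs passed the test, and neither did any difference between the sites or between the age classes. A fall downstream was common in the transcriptome: edgeR called 13.7% of the 51264 contigs tested lower there and 27.7% in either direction, against 3 of the 3 superoxide dismutase contigs. The median log2 difference of the 3 contigs was -1.98 and that of all tested contigs -0.017.

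SODC.1.3 downstream in 2009 stood at 6.68, 5.44, 12.7, 18.6, 5.75, 48.9, 65.9 and 56.0 CPM in replicates 1 to 8. Downstream in 2010 its lowest, median and highest values were 2.80, 5.62 and 7.93 CPM. Replicates 6, 7 and 8 of 2009 were far above the other animals. The groups overlapped in part: 5 of 8 animals of 2009 lay above every animal of 2010, and 7 of 8 lay above the 2010 median. The means were 27.5 ± 25.2 CPM in 2009 and 5.62 ± 1.98 CPM in 2010 (SD, n = 8 each). The log2 difference was -2.29 ± 0.56 (SE), with an adjusted p of 0.00310 in edgeR's quasi-likelihood test with Benjamini-Hochberg adjustment over all contigs.

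SODC.3.3 downstream in 2009 stood at 1830, 2700, 1915, 427, 4098, 6965, 3736 and 34264 CPM in replicates 1 to 8, and downstream in 2010 its lowest, median and highest values were 963, 1660 and 3263 CPM. Replicate 8 stood apart from the rest, and replicate 4 lay below every animal of 2010. In 4 of 8 animals of 2009 the level was above every animal of 2010, and in 2 of 8 on CPM without the TMM factor. The means were 6992 ± 11191 and 1771 ± 710 CPM (SD, n = 8 each), and the log2 difference was -1.98 ± 0.56 (SE), with an adjusted p of 0.00830 by edgeR. Without downstream 2009 replicate 8 the difference was -0.83, with an adjusted p of 0.133, and was not called.

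SODC.2.3 downstream in 2009 stood at 1.46, 2.09, 3.05, 3.34, 1.18, 5.04, 11.1 and 10.6 CPM in replicates 1 to 8. In 2010 the lowest, median and highest values were 0.615, 1.44 and 4.19 CPM. Replicates 6, 7 and 8 were above every animal of 2010, and the other 5 lay within the 2010 range. On CPM without the TMM factor 2 animals of 2009 were above every animal of 2010. The means were 4.74 ± 3.97 and 1.78 ± 1.23 CPM (SD, n = 8 each), and the log2 difference was -1.41 ± 0.46 (SE), with an adjusted p of 0.0216 by edgeR. The call was lost without replicate 7 (-1.11, adjusted p 0.0735) and without replicate 8 (-1.13, adjusted p 0.0648).

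**Figure D1:**
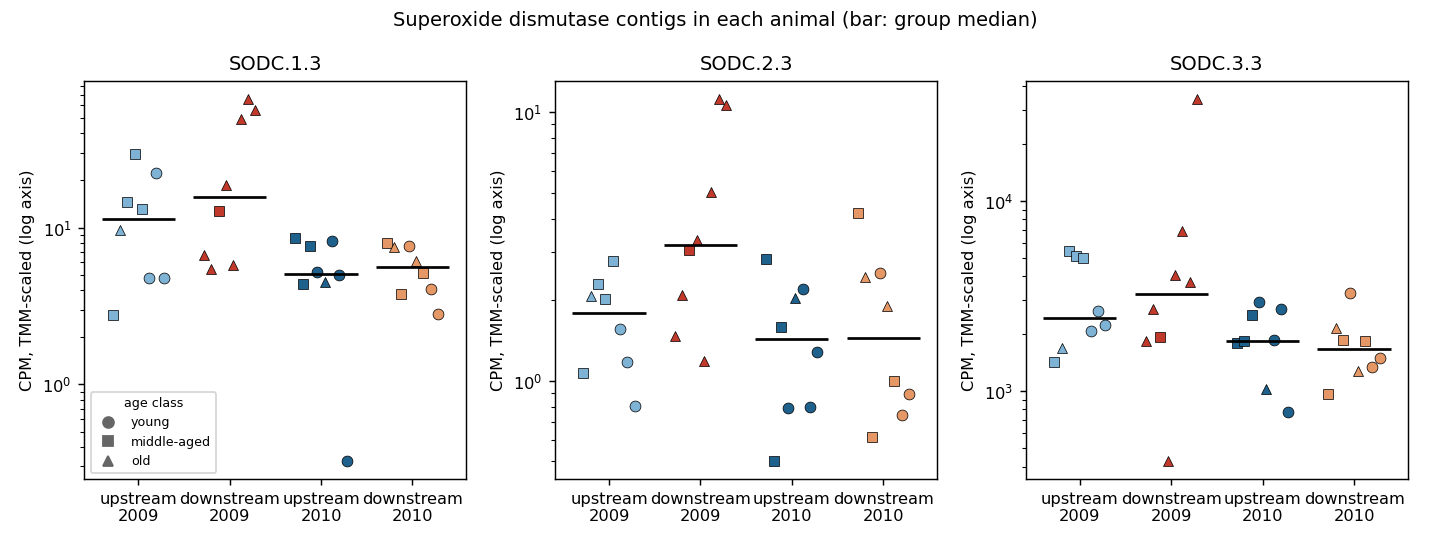
Level of the 3 superoxide dismutase contigs in each of the 32 animals (TMM-scaled CPM, log axis) by group, with symbols for age class and a bar at the group median. In SODC.1.3 downstream 2009 replicates 6, 7 and 8 lie between 48.9 and 65.9 CPM, while no animal of 2010 exceeds 8.55 CPM.

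SODC.1.3 was the most stable of the 3 calls. When 1 of the 32 libraries at a time was left out, its log2 difference stayed between -2.45 and -1.99 and its adjusted p between 0.00136 and 0.0100. Without replicates 7 and 8 of downstream 2009 together, SODC.1.3 differed by -1.57 with an adjusted p of 0.0392. In that comparison SODC.2.3 differed by -0.62 (adjusted p 0.322) and SODC.3.3 by -0.79 (adjusted p 0.191), and neither was called. With age class as an added term the adjusted p was 0.0449 for SODC.1.3, 0.186 for SODC.2.3 and 0.0653 for SODC.3.3.

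**Figure D2:**
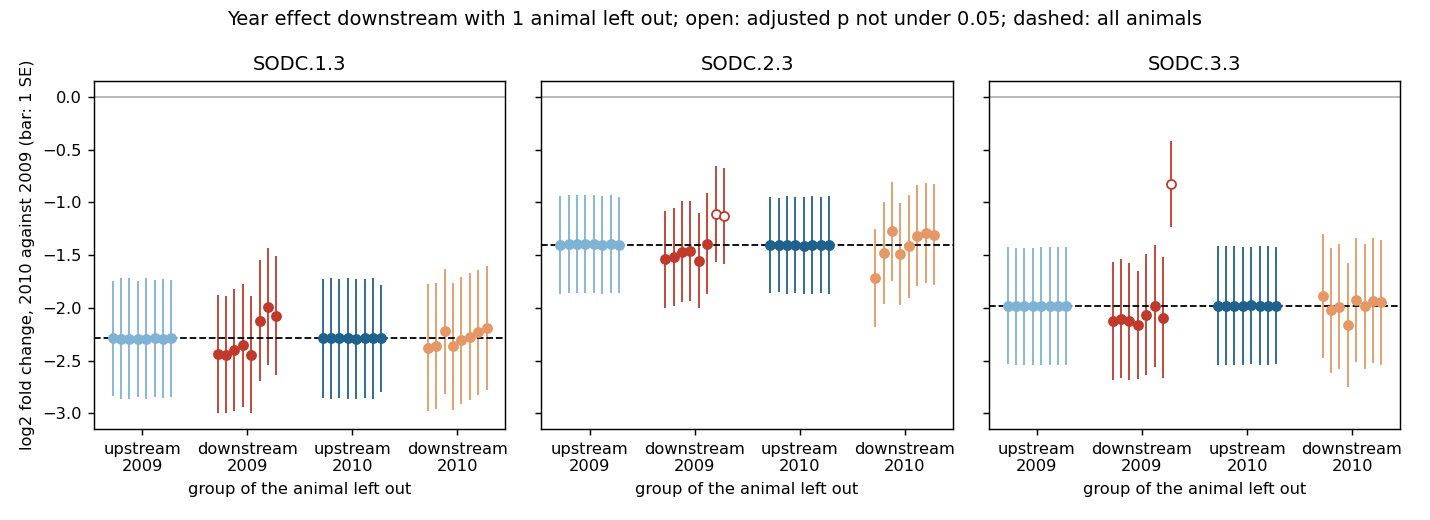
Log2 fold change of each superoxide dismutase contig between 2010 and 2009 downstream (y axis, bars of 1 SE) with 1 animal left out at a time, arranged by the group of that animal (x axis). Open points are not called, dashed lines give the value with all animals, and SODC.3.3 comes closest to 0, at -0.83, without downstream 2009 replicate 8.

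Within the 4 sequencing lanes, each with 2 animals per group, the fall was not uniform. The log2 CPM of SODC.1.3 differed by -1.58, -4.17, 0.36 and -1.52 in lanes 1 to 4, and that of SODC.2.3 by -0.82, -3.70, 0.86 and -1.34. For SODC.3.3 the differences were -1.81, -3.00, -0.63 and 1.44. Each contig was lower in 2010 in 3 of 4 lanes, and the lane with the opposite sign was lane 3 for SODC.1.3 and SODC.2.3 and lane 4 for SODC.3.3. Lane 2, with the largest differences, held downstream 2009 replicates 7 and 8, both old, and downstream 2010 replicates 7 and 8, both young. Lane partly coincided with age class: lane 2 held no middle-aged animal and lane 3 no young one. With lane as an added term all 3 contigs were called, at an adjusted p of 0.0120 for SODC.1.3, 0.0434 for SODC.2.3 and 0.0284 for SODC.3.3.

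The level of the contigs moved with the TMM factor. Over the 32 animals the log2 TMM factor and the log2 level had a Pearson r of -0.687 for SODC.1.3 (Spearman rho -0.692), -0.498 for SODC.2.3 (rho -0.348) and -0.617 for SODC.3.3 (rho -0.608). Permutation p-values for r, adjusted over 12 relations, were 0.00012, 0.0128 and 0.00096, and those for rho 0.00036, 0.155 and 0.0024. Without the 2 animals of most extreme factor r was -0.531, -0.155 and -0.478, so the relation of SODC.2.3 rests on those animals. On CPM without the factor r was -0.493 (adjusted permutation p 0.0128), -0.142 (0.663) and -0.312 (0.204). The factor divides the level, so the 2 measures share it, and its part in the fall was not tested. Without any TMM factor the log2 differences downstream were -1.51, -0.61 and -1.07, and only SODC.1.3 was called (adjusted p 0.0161).

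Markers of other cell types in the sample were examined in the same animals, and their called shares stand beside the 13.7% of all contigs called lower downstream and the 27.7% called in either direction. For haemocytes 7 contigs matched a list of name patterns, lysozymes and C1QBP, and the match was not tested as a mark of these cells. C1QBP matched by the start of its name only. Of the 7, 2 lysozyme contigs fell downstream between 2009 and 2010. The summed level of the 7 ran from 113 to 841 CPM downstream in 2009, 56.8 to 189 CPM downstream in 2010, 52.3 to 260 CPM upstream in 2009 and 56.7 to 144 CPM upstream in 2010. Downstream 2009 replicates 6, 7 and 8, the animals with the highest SODC.1.3, had 410, 576 and 841 CPM. Only LYS.1.2 of the 7 contigs was at 0 in any animal, in 8 of 32. Of 11 tropomyosin contigs, which mark muscle, 2 fell, a share near that of all contigs. Replicates 6, 7 and 8 of downstream 2009 had a summed level of 1252, 1764 and 3723 CPM, of which the first and second lay within the upstream 2009 range. The sum ran from 265 to 3723 CPM downstream in 2009, from 219 to 966 CPM downstream in 2010, from 340 to 2029 CPM upstream in 2009 and from 333 to 3639 CPM upstream in 2010. Of 2 dynein contigs, names of ciliated cells, 1 rose downstream. Their sum ran from 7.01 to 56.2 CPM over all animals and was 7.01, 34.4 and 7.49 CPM in replicates 6, 7 and 8 of downstream 2009, on both sides of the group median of 13.8 CPM. The part of other cell types in the result was not tested, and in bulk tissue fewer cells of a type and less RNA per cell cannot be told apart.

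Upstream, none of the 3 contigs was called between the years by edgeR, against 3.73% of all contigs. DESeq2 and limma-voom called 0 of the 3, against 3612 and 2670 of all contigs. SODC.1.3 alone of the 3 had an unadjusted p under 0.05 by edgeR, as did 9953 of all contigs. SODC.1.3 had a lowest, median and highest value of 2.77, 11.4 and 29.4 CPM in 2009 and of 0.324, 5.07 and 8.55 CPM in 2010. In 5 of 8 animals of 2009 it lay above every animal of 2010. Its log2 difference was -1.21 ± 0.54 (SE), with an interval of 2 SE to either side from -2.30 to -0.12 and an adjusted p of 0.213 by edgeR. SODC.3.3 ran from 1419 over a median of 2431 to 5451 CPM in 2009 and from 780 over 1843 to 2952 CPM in 2010, with an interval of the log2 difference from -1.81 to 0.35. SODC.2.3 ran from 0.801 over 1.78 to 2.79 CPM and from 0.501 over 1.43 to 2.84 CPM, with an interval from -1.10 to 0.71. In SODC.2.3 the range of 2009 lay within that of 2010.

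Whether the year differences differed between the sites was tested by the interaction. Its estimates were -1.08 ± 0.76 (SE) for SODC.1.3, -1.21 ± 0.64 for SODC.2.3 and -1.25 ± 0.76 for SODC.3.3, and edgeR gave them adjusted p-values of 0.718, 0.517 and 0.624. None was called, against 0.441% of all contigs, and 0 of the 3 had an unadjusted p under 0.05, against 5557 of all contigs. DESeq2 and limma-voom called 0 of the 3, against 940 and 4070 of all contigs. The fall downstream is therefore not shown to differ from the change upstream. The 4 comparisons of site and year draw on the same 4 groups, so an animal high downstream in 2009 enters the site difference of that year, the year difference downstream and the interaction.

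The comparison of the sites sets animals below the dump against those above it, and in 2009 age class largely went with site. In 2009 every edgeR estimate was higher downstream, and none passed the test. The sign for SODC.3.3 depended on 1 animal: the log2 difference was -0.039 without downstream 2009 replicate 8, -0.092 without replicates 7 and 8, and -0.41 by limma-voom. At an unadjusted p under 0.05 all 3 contigs were past the threshold, as were 4277 of all contigs, while edgeR called 0% of contigs after adjustment. limma-voom called 0 contigs and DESeq2 49, none of them a superoxide dismutase contig. The adjusted p of the 3 contigs by edgeR lay between 0.534 and 0.596. In SODC.2.3 5 of 8 downstream animals lay above every upstream animal, in SODC.1.3 3 of 8 and in SODC.3.3 2 of 8. The 2 SE intervals of the log2 difference were 0.039 to 2.21 for SODC.1.3, 0.54 to 2.38 for SODC.2.3 and 0.041 to 2.21 for SODC.3.3. In single lanes the site difference of log2 CPM in 2009 ran from -0.42 to 2.56 for SODC.1.3, from 0.23 to 3.46 for SODC.2.3 and from -2.55 to 2.22 for SODC.3.3, with its highest value in lane 2 for each.

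In 2010 none of the 3 contigs was called by edgeR, against 0.164% of all contigs. None had an unadjusted p under 0.05, against 7268 of all contigs. DESeq2 and limma-voom called 0 of the 3, against 755 and 14879 of all contigs. Median levels upstream and downstream were 5.07 and 5.62 CPM for SODC.1.3, 1.43 and 1.44 CPM for SODC.2.3 and 1843 and 1660 CPM for SODC.3.3, and the groups overlapped in every contig. The 2 SE intervals of the log2 difference were -1.03 to 1.11, -0.66 to 1.15 and -1.20 to 0.95. Averaged over both years none of the 3 was called either, with 1, SODC.2.3, at an unadjusted p under 0.05, against 0% of all contigs by edgeR, 6429 contigs at an unadjusted p under 0.05, 0 by limma-voom and 227 by DESeq2.

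**Figure D3:**
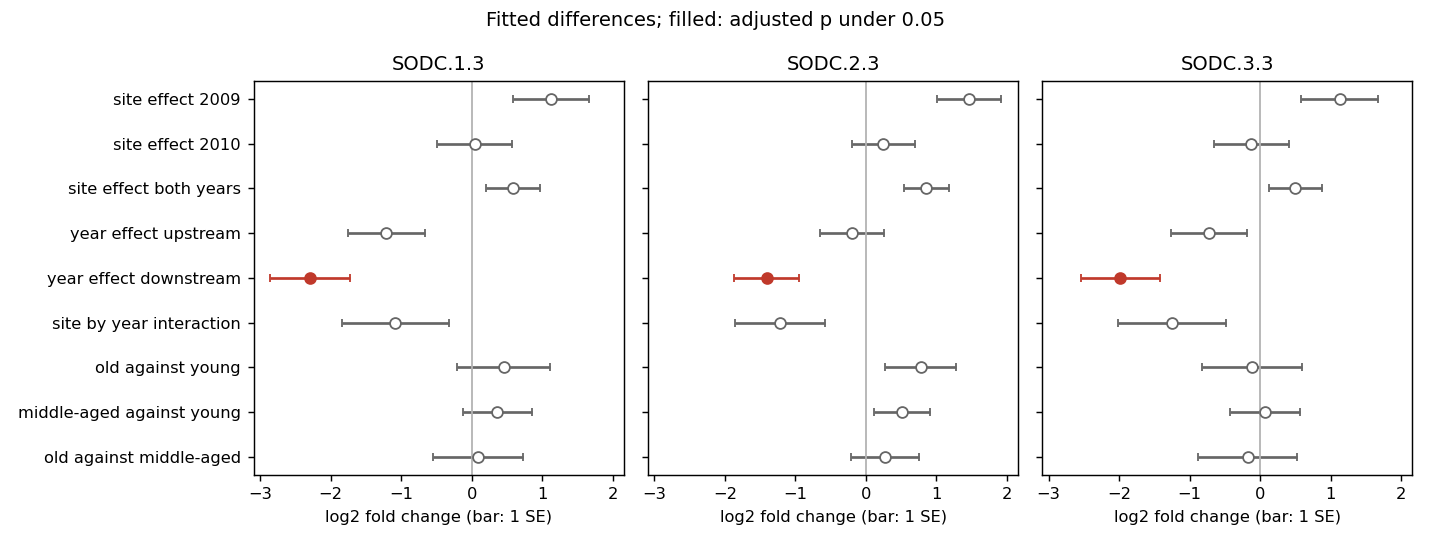
Log2 fold changes of the 3 superoxide dismutase contigs (x axis, bars of 1 SE) in the comparisons of site, year and age class (y axis). Filled points mark an adjusted p under 0.05 by edgeR, which the 3 contigs reached between 2010 and 2009 downstream and in no other comparison shown.

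The spread between animals was itself uneven. The coefficient of variation of SODC.1.3 was 91.5% downstream in 2009, 73.6% upstream in 2009, 49.3% upstream in 2010 and 35.2% downstream in 2010. For SODC.3.3 it reached 160% downstream in 2009. Over all 32 animals the highest value of SODC.1.3 was 204 times the lowest. That lowest value, 0.324 CPM in upstream 2010 replicate 8, came from 23 reads and has a Poisson 95% interval of 0.205 to 0.486 CPM, which covers counting error only.

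Age class was compared in a model with group and age as additive terms. Young, middle-aged and old animals had mean levels of SODC.2.3 of 1.27 ± 0.630 (n = 10), 1.99 ± 1.16 (n = 11) and 3.93 ± 3.58 CPM (SD, n = 11). Those of SODC.1.3 were 6.47 ± 5.95, 9.98 ± 7.55 and 21.4 ± 23.5 CPM, and those of SODC.3.3 2133 ± 780, 2701 ± 1652 and 5468 ± 9723 CPM. The means rose from class to class in each contig, and the classes overlapped. The medians rose from class to class in SODC.2.3 (1.03, 2.01 and 2.09 CPM). They did not in SODC.1.3 (4.86, 7.93 and 7.56 CPM) or in SODC.3.3 (2143, 1851 and 2146 CPM). In the 4 old animals outside downstream 2009 the means were 6.96 ± 2.21 CPM for SODC.1.3, 2.10 ± 0.226 CPM for SODC.2.3 and 1532 ± 490 CPM for SODC.3.3 (SD). Middle-aged animals outside that group had means of 9.70 ± 7.90, 1.89 ± 1.17 and 2779 ± 1720 CPM (SD, n = 10), and no young animal belonged to it.

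With the group in the model no age difference of the 3 contigs passed the test. Old and young animals differed on the log2 scale by 0.45 ± 0.65 (SE) for SODC.1.3, 0.78 ± 0.50 for SODC.2.3 and -0.11 ± 0.71 for SODC.3.3, and edgeR gave adjusted p-values of 0.669, 0.331 and 0.930. None was called, against 2.45% of all contigs. In the 3 comparisons of age classes no superoxide dismutase contig had an unadjusted p under 0.05 by edgeR, and 0 were called by DESeq2 or limma-voom. By limma-voom SODC.2.3 was higher in old than in young animals by 1.17 ± 0.43 (SE) on the log2 scale, with an adjusted p of 0.0572. Of all contigs, DESeq2 and limma-voom called 4104 and 8554 for old against young, and 533 and 481 for middle-aged against young. Between middle-aged and young animals the estimates lay between 0.067 and 0.51, none called, against 0.0039% of all contigs. Between old and middle-aged animals they lay between -0.18 and 0.27, none called, against 0% of all contigs by edgeR, 6830 at an unadjusted p under 0.05, 2 by DESeq2 and 2387 by limma-voom.

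The 3 contigs agreed over animals to different degrees. SODC.1.3 and SODC.2.3 rose and fell together most closely, with a Pearson r of 0.702 between their log2 CPM over 32 animals and a Spearman rho of 0.775. The permutation p of r was 1e-05, the smallest that the permutations can give, and 3e-05 after adjustment over the 3 pairs. Without the 2 animals farthest from the median of SODC.1.3 r was 0.747, and for deviations from the group means it was 0.609. Both levels of an animal share its TMM factor, and without that factor r was 0.562. It was 0.561 without downstream 2009 replicates 7 and 8 and with the scaling redone. Within groups r was 0.950 downstream in 2009 and 0.884 downstream in 2010, with exact permutation p-values adjusted over 12 values of 0.00387 and 0.0391 (n = 8 each). Upstream it was 0.532 in 2009 and 0.200 in 2010, where adjusted exact permutation p-values were 0.347 and 0.792.

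SODC.1.3 and SODC.3.3 had a Pearson r of 0.595 (adjusted permutation p 0.00166) and a Spearman rho of 0.519 (adjusted permutation p 0.00436). Without the 2 farthest animals r was 0.580, and for deviations from the group means 0.506. It was 0.401 without the TMM factor (adjusted permutation p 0.0464) and 0.494 without downstream 2009 replicates 7 and 8. SODC.2.3 and SODC.3.3 had an r of 0.392 (adjusted permutation p 0.0280) and a rho of 0.228 (0.210). That relation rests on downstream 2009 replicates 7 and 8: without them r was 0.0787 with the scaling left as it was. Within single groups none of the 8 correlations that involve SODC.3.3 passed an exact permutation test after adjustment, and their r ran from -0.313 to 0.741.

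**Figure D4:**
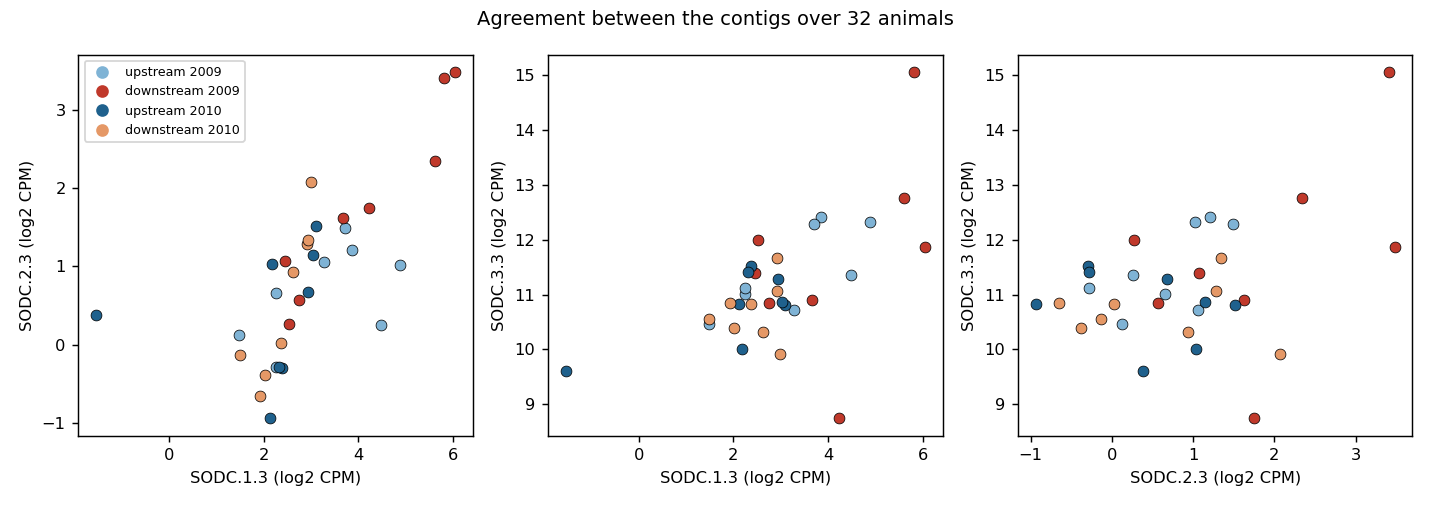
Log2 CPM of 1 superoxide dismutase contig against another for the 3 pairs, with 1 point per animal coloured by group. SODC.1.3 and SODC.2.3 have the highest r (0.702), and in the pair of SODC.2.3 and SODC.3.3 (r = 0.392) downstream 2009 replicates 7 and 8 lie farthest to the right.

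A different response of the 3 contigs was looked for in the log2 ratio of each pair within an animal, in which the TMM factor largely cancels. Of 12 exact permutation tests, 3 ratios in 4 comparisons of site and year with 8 animals against 8, the smallest unadjusted p was 0.0987. It belonged to SODC.1.3 over SODC.2.3 between the years downstream, where the mean log2 ratio changed by -0.48. Adjusted exact p-values lay between 0.647 and 0.853. No difference in response between the contigs passed the test at these sample sizes.

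Other contigs tracked each superoxide dismutase contig more closely than the other superoxide dismutase contigs did. The likeness was the Pearson r of log2 CPM over the 32 animals, among 1281 other named contigs with a mean of at least 1 CPM, and it is given as a description because all points share library and scaling. SODC.1.3 was most like CALM3.1.2 (0.846), named for the calcium sensor calmodulin, followed by csta (0.798), NVL.2.2 (0.792), TMA16 (0.786) and H2A.1.2 (0.786), the last named for a histone. SODC.2.3 was most like CIPKH (0.917), named for a plant protein kinase, CATL1 (0.904), named for the lysosomal protease cathepsin L, ACTB (0.894), a cytoskeletal actin, COLA1 (0.894) and NFIL3.1.2 (0.880), a transcription factor name.

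SODC.3.3 had the closest companions: FCN1.2.2 (0.960) and FCN1.1.2 (0.958), named for ficolin, a lectin of innate immunity in mammals, and HERC2 (0.953), named for a ubiquitin ligase. PGCB (0.886), named for the matrix proteoglycan brevican, and corin (0.854), named for a membrane-bound protease, came next. For FCN1.2.2, FCN1.1.2 and HERC2 the r without downstream 2009 replicates 7 and 8 was 0.938, 0.929 and 0.918. In replicate 8, which had the highest SODC.3.3, FCN1.2.2 was at 85.5 CPM against a group median of 8.03 CPM and HERC2 at 313 CPM against 29.5 CPM. Among all names SODC.2.3 ranked 105 and SODC.3.3 307 by likeness to SODC.1.3, and SODC.2.3 ranked 493 by likeness to SODC.3.3.

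**Figure D5:**
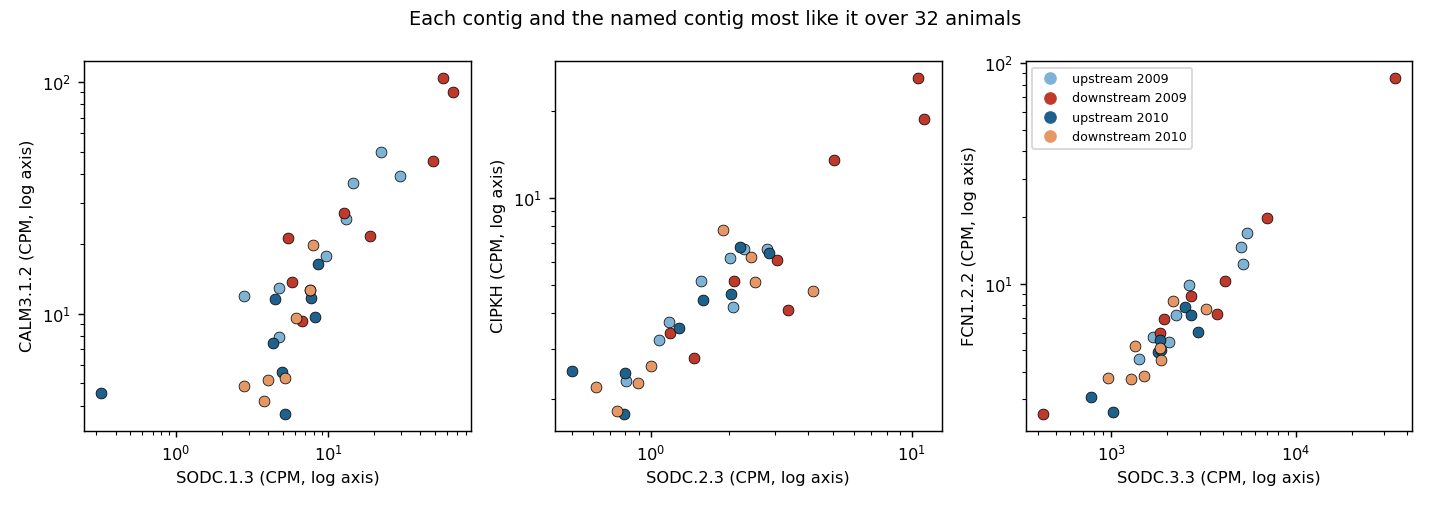
Level of each superoxide dismutase contig (x axis, CPM, log axis) against that of the named contig most like it (y axis, CPM, log axis), with 1 point per animal coloured by group. SODC.3.3 and FCN1.2.2 have the highest r (0.960), with downstream 2009 replicate 8 at the top right.

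The other genes of the pathway were taken from lists of name patterns, 28 contigs in all. By these patterns no tested contig bore the name of catalase, of a peroxiredoxin or of another superoxide dismutase. A gene or protein name was borne by 1409 of the 51264 contigs tested, so a missing name does not show that a gene was absent. Between 2009 and 2010 downstream 7 of the 28 fell and 0 rose, and 22 had an estimate below 0, where 13.7% of all contigs were called lower and 27.7% in either direction. Their median log2 difference was -0.49, against -0.017 for all contigs tested. No contig of the lists was called by edgeR between the years upstream, where 8 had an unadjusted p under 0.05, or between the sites, where 1 had one in 2009, 1 in 2010 and 5 over both years. Of the 51264 contigs tested, 9953 had one between the years upstream. Between the sites 4277 had one in 2009, 7268 in 2010 and 6429 over both years.

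Of 3 contigs listed by name as possible sources of superoxide, none was called downstream, and whether they make superoxide in these animals was not tested. NOS, named for nitric oxide synthase, differed by -1.10 ± 1.00 (SE), and XDH.1.2 and XDH.2.2, named for xanthine dehydrogenase, by -0.44 ± 0.27 and 0.78 ± 0.63. NOS was the only listed contig called for age, higher in old than in young animals by 3.80 ± 0.96 (SE, adjusted p 0.0366 by edgeR). That call was lost in 8 of 41 alternatives, with an adjusted p of up to 0.283.

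Among enzymes that act after superoxide dismutase, GPX5, named for a glutathione peroxidase that reduces peroxides, fell from 10.8 ± 11.0 to 3.77 ± 2.01 CPM (SD, n = 8 each), a log2 difference of -1.52 ± 0.50 (SE, adjusted p 0.0233 by edgeR). Of 14 thioredoxin and glutathione contigs, GPX5 among them, 2 fell, a share close to the 13.7% of all contigs called lower. The other was gstz1, named for a glutathione transferase that acts in tyrosine breakdown, which fell from 64.9 ± 35.0 to 26.6 ± 4.30 CPM (SD), or by 1.29 ± 0.31 on the log2 scale (adjusted p 0.00283 by edgeR). The call of gstz1 held in all 42 alternatives. GSTZ1 and GSTZ2, contigs of like name, differed by -0.21 ± 0.56 and -0.20 ± 0.58 (SE). Their adjusted p were 0.818 and 0.826 by edgeR, and neither was called. The call of GPX5 was lost in 4 of 42, among them without downstream 2009 replicate 7, with an adjusted p of up to 0.230 without downstream 2009 replicates 7 and 8 together.

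Of 7 contigs for copper and zinc handling 3 fell downstream, where 13.7% of all contigs did. COX17, named for the copper chaperone of cytochrome oxidase, fell from 40.1 ± 29.8 to 17.0 ± 3.92 CPM (SD), or by 1.24 ± 0.38 (SE) on the log2 scale (adjusted p 0.0147 by edgeR). That call was lost in 4 of 42 alternatives, among them without downstream 2009 replicate 7, with an adjusted p of up to 0.167. The zinc transporter contigs slc30a8.2.3 and slc30a8.3.3 fell by 0.77 ± 0.27 and 0.74 ± 0.27. Their calls were lost in 10 and 11 of 42 alternatives. Both contigs of FRIS, named for a soma form of the iron store ferritin, fell: FRIS.1.2 from 20145 ± 15860 to 7662 ± 1451 CPM and FRIS.2.2 from 4842 ± 3739 to 1662 ± 401 CPM (SD, n = 8 each). Their log2 differences were -1.39 ± 0.38 and -1.54 ± 0.41 (SE), with adjusted p of 0.00681 and 0.00525 by edgeR, and each call was lost in 1 of 42 alternatives. Neither contig of EGLN1, named for an oxygen-sensing hydroxylase, was called, at -0.071 ± 0.28 and 0.49 ± 0.29.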

How the data were processed

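Kidney RNA of 32 mussels was made into TruSeq RNA v2 libraries, 1 per animal. The authors deposited raw read counts per assembled contig, as whole numbers. BWA 0.7.12 and SAMtools 1.1 were used, per the submitters' processing notes. The assembler, the source of contig names and the counting of reads that match several contigs are not given in the sources used here.

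Groups, age classes and lanes came from the labels. P-values measure the spread between animals. Counts were tested in R 4.3.3 with edgeR 4.0.16. filterByExpr, with a minimum count of 10 and a minimum total of 15, kept 51264 of 51392 contigs. TMM factors scaled the libraries, and all 32 entered 1 robust quasi-likelihood fit (glmQLFit) with a mean per group. Age was tested in a model of group and age class. A contig was called at an adjusted p under 0.05. SE came from the F statistic. CPM were computed here from the deposited counts, and log2 CPM for correlations and ratios with a prior count of 2. Correlations over 32 animals used 100000 permutations, two-sided. Those within groups and the ratio tests were exact and two-sided. Poisson intervals are 95% intervals of counting error.

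The members, gene lists and tests were chosen with earlier results of these data known. Named were the 3 contigs whatever their p, the 5 named contigs most like each, and the list members called in any comparison, with superoxide sources and EGLN1 added to show a whole list. Alternatives were RLE factors, no filter, a filter of 1 CPM in 8 libraries, an added age or lane term, a fit of the compared groups alone, limma-voom (limma 3.58.1) with sample weights, DESeq2 1.42.0, each of the 32 libraries left out, and downstream 2009 replicates 7 and 8 left out together. Those without a TMM factor, without old animals and without downstream 2009 animals for age were chosen after seeing the data. The edgeR, limma-voom and DESeq2 steps were run on simulated data for the site comparison of 2009, and edgeR also for old against young. The condition to pass was set on median estimates and not on calls, and the year comparison downstream was not simulated.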

Additional observations from a re-analysis of the deposited data

Results flagged for a closer look

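In 24 checks, 3 contigs in 4 groups of 8 animals on 2 scales, 2 single animals stood far from the others of their group, by Dixon's criterion on the gap to the nearest animal. Chance marks about 1 in 20 groups. SODC.1.3 in upstream 2010 replicate 8 was at -1.53 log2 CPM, or 0.324 CPM, below the next animal of its group at 4.35 CPM. It was marked on log2 CPM (gap over range 0.790) and not on CPM (0.489). SODC.3.3 in downstream 2009 replicate 8 was at 34264 CPM, above the next animal at 6965 CPM. It was marked on CPM (gap over range 0.807) and not on log2 CPM (0.363).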

How the results depend on the processing

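Of the 3 falls downstream between the years, that of SODC.1.3 was called under every alternative tried. SODC.2.3 was not called without a TMM factor (-0.61), with an age term (-1.06), with only the groups compared (-1.44) and without downstream 2009 replicates 7 and 8 (-0.62). SODC.3.3 was not called without a TMM factor (-1.07), with an age term (-2.08), by limma-voom (-0.40) and without those replicates (-0.79). With 1 library left out the log2 differences ran from -1.71 to -1.11 for SODC.2.3 and from -2.17 to -0.83 for SODC.3.3. Omitting the TMM factor moved the median of all contigs from -0.017 to 0.47 downstream between the years, and relative to that median the 3 differences were -1.98, -1.08 and -1.55. It stood at 0.31 for the year upstream and 0.17 for site 2010. The cause of these losses was not tested.

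Several estimates that were not called changed sign. By limma-voom SODC.3.3 was at -0.41 (site 2009), -0.39 (both years), 0.035 (interaction) and 0.0018 (old against young), and SODC.1.3 at -0.20 (site 2010). Without replicates 7 and 8 SODC.3.3 was at -0.092 (site 2009) and -0.11 (both years), and SODC.1.3 at -0.050 (old against middle-aged). With an age term SODC.1.3 was at -0.015 (site 2010), and without old animals at -0.11. Without downstream 2009 animals it was at -0.21 (old against middle-aged). Without a TMM factor SODC.3.3 was at 0.080 (site 2010) and -0.024 (middle-aged against young), and SODC.2.3 at 0.21 (year upstream). With a lane term, in a design where lane partly coincided with age class, SODC.3.3 was at 0.92 (old against young) and 0.20 (old against middle-aged). With 1 library left out SODC.3.3 ran from -0.039 to 1.31 (site 2009), -0.082 to 0.59 (both years), -0.41 to 0.17 (old against young), -0.015 to 0.23 (middle-aged against young) and -0.62 to 0.11 (old against middle-aged). SODC.1.3 ran from -0.14 to 0.16 (site 2010) and -0.20 to 0.27 (old against middle-aged), and SODC.2.3 from -0.061 to 0.44 (site 2010). The cause was not tested.

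The correlation of SODC.2.3 and SODC.3.3 lost its call for deviations from the group means (0.287), without replicates 7 and 8 (0.0908) and without a TMM factor (0.160). Counts of contigs called moved with the method: 8298 to 24469 (14225 as reported) for the year downstream, 514 to 4420 (1914) upstream, 0 to 49 (0) for site 2009, 27 to 14879 (84) for site 2010, 0 to 227 (0) for both years, 1 to 4070 (226) for the interaction, 699 to 8554 (1258) for old against young, 0 to 533 (2) for middle-aged against young and 0 to 2387 (0) for old against middle-aged. No paired analysis was possible because the replicate numbers, given in accession order, pair no single animals. They do follow the lanes, which hold 2 animals of each group and partly go with age class. With lane as a term the 3 differences downstream between the years were -2.14, -1.43 and -1.73, all called. Counting error was widest for the 23 reads of SODC.1.3 in upstream 2010 replicate 8.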
